A study of Mus musculus with 4 samples.

Results

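Cryab (αB-crystallin) and 9 other heat shock genes were followed in bone-marrow-derived macrophages (BMDMs) that had been cocultured with colon cancer cells. The 10 genes, of 21878 listed in the count table, were Cryab, Hspb1, Hspa1a, Hspa1b, Hspa8, Hsph1, Dnajb1, Hsp90aa1, Hspd1 and Hspe1, and all 10 were found by their symbols. Cryab was chosen by its CPM and fold change in these very libraries, where it differed by more than 2-fold, so its difference is a description here, with no test. The other 9 were added for their function as targets of heat shock factor 1, with earlier results of this contrast known.

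The 4 libraries were 2 labelled WT and 2 labelled anti-Act1. The labels give C57BL/6 mice of 8 weeks for both groups, the wild type genotype for the WT libraries and the anti-Act1 genotype for the others. The paper describes the anti-Act1 animals as mice with Act1 knocked down specifically in macrophages, and the promoter that drives the knockdown is not given in the sources used here. The marrow cells of both groups were matured with M-CSF, the growth factor for macrophages. Both groups were then kept with MC38, a mouse colon adenocarcinoma line, for 48 h by the labels, while the paper's figure legend gives a shorter time. No library therefore came from macrophages kept alone. By the paper's methods, a porous insert kept the cancer cells apart from the macrophages. Libraries within a group are separate samples by the labels, and nothing ties each to 1 animal, so the p-values measure only the spread between these samples. The comparison addressed how the macrophages' genes differed when Act1, an adaptor protein of IL-17 receptor signaling, was knocked down.

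Heat shock factor 1 (HSF1) is a transcription factor that is held inactive by chaperones in unstressed cells. When misfolded proteins draw the chaperones away, it forms trimers, binds heat shock elements in promoters and raises the transcription of chaperone genes. Small heat shock proteins hold unfolding proteins, HSP70 with its J-domain and HSP110 partners refolds them, HSP90 matures signaling proteins, and HSP60 with HSP10 folds proteins inside mitochondria.

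The total counts were 64199075 and 75062945 in the WT libraries and 61926229 and 55435063 in the anti-Act1-labelled libraries. The 4 libraries did not show the label in the transcript of the targeted gene. Traf3ip2, which encodes Act1, was at 6.98 and 7.54 CPM (read counts over the TMM-adjusted size of each library) in the WT libraries and at 9.63 and 7.84 CPM in the anti-Act1-labelled libraries, so it was not lower (log2 difference 0.27, edgeR adjusted p = 0.117). Without anti-Act1 replicate 2 the value was 0.41 (edgeR adjusted p = 0.0343), again higher. The paper reports strongly reduced Act1 expression in BMDMs of anti-Act1 mice, and its text does not say whether RNA or protein was measured. These 4 libraries do not show that reduction, so the direction of every difference below rests on the labels. The groups also differed in Y-linked transcripts: Ddx3y had 5741 and 7360 counts in the WT libraries and 0 and 0 in the anti-Act1-labelled libraries, so that the sex of the cells and the genotype cannot be told apart. The 8 macrophage markers summed to between 24570 and 25551 CPM in the WT libraries and between 25415 and 26254 CPM in the anti-Act1-labelled libraries, and all 8 passed the filter on low counts. Of the 8, Mertk and Itgam were lower (log2 difference -0.40 and -0.31) and Cd14 was higher (0.16) in the anti-Act1-labelled libraries.

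The promoters of these genes were searched for the letters of the heat shock element. RefSeq promoters (GRCm38.p6, 250 bases before to 50 bases after the start) held 7 of the 10 genes, without Cryab, Hspa8 and Hsp90aa1. A heat shock element was searched for as 3 alternating units, GAANNTTCNNGAA or TTCNNGAANNTTC, which are each other's reading on the opposite strand, and as 2 units, GAANNTTC or TTCNNGAA, which read the same on both strands and lie within the longer ones. The element of 3 units stood in 3 of the 7 genes (Hspd1, Hspe1 and Hsph1), or 42.9%, against 179 of all 27025 genes in the table (0.662%). The form with 2 units stood in 6 of the 7, or 85.7%, against 17.0% of all genes, and not in either of the Dnajb1 promoters. The members were chosen as targets of HSF1, so nothing is read from their shares against all genes. Hspd1 and Hspe1 are counted for the same stretch of bases, and Hspa1a and Hspa1b for near-identical promoters, so these genes are not independent. A match describes these letters and no binding was measured.

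Hspd1 and Hspe1, which encode mitochondrial HSP60 and HSP10, lie head to head on chromosome 1, and their RefSeq spans overlap by 96 bases. The 30 bases at chr1:55088053-55088082 lie before the start of Hspe1 and before 1 of the 2 annotated starts of Hspd1, and they lie inside the longer Hspd1 span, where GENCODE M21 has an Hspd1 exon with untranslated sequence. They are shown because the same element falls in the promoter windows of both genes, once per strand, and capitals mark the run of alternating TTC and GAA units.
Hspe1 (plus strand, 95 to 66 bases before its start): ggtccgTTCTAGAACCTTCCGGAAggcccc
Hspd1 (minus strand, 150 to 121 bases before the start that lies further inside): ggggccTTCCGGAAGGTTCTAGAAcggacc

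Hspa1a and Hspa1b, which encode the inducible cytosolic HSP70, have copies of the same promoter 10120 bases apart (the space between the genes) on chromosome 17. Of the 250 bases before the start, 247 (98.8%) were identical, and all 150 printed here were. They are shown because the pair carries the same element, and its transcripts also share long identical stretches, described with its reads further on. Capitals mark the element of 2 units in the stretch from 200 to 51 bases before the start, minus strand, of Hspa1a at chr17:34972207-34972356 and of Hspa1b at chr17:34959289-34959438.
Hspa1a and Hspa1b: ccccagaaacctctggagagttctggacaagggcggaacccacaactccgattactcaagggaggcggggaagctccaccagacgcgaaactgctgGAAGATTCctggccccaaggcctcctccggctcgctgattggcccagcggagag

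Hspb1, the other small heat shock gene beside Cryab, carries 2 elements of 2 units, in capitals, in the stretch from 200 to 51 bases before its start on the plus strand, chr5:135887719-135887868.
Hspb1: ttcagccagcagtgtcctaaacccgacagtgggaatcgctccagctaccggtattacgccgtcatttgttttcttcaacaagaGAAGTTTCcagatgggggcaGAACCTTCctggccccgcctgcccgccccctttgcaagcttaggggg

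Hsph1, which encodes an HSP110 protein, has its element of 3 units just after its annotated starts (first base 16 or 37 bases past them), at chr5:149636288-149636300 on the minus strand.
Hsph1: TTCTGGAAAGTTC

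The steady levels of the 10 genes ran over more than 3 orders of magnitude. Levels between genes were compared as FPKM, which divides the counts of a gene by its length as well as by the library total. In the WT libraries the means ran from Hspa8 at 532 FPKM and Hsp90aa1 at 103 FPKM through Hspe1 (45.4), Hspd1 (41.9), Hsph1 (16.7) and Dnajb1 (16.2) to Hspa1a (0.927), Hspa1b (0.645), Hspb1 (0.196) and Cryab (0.164). Neighbours in this order whose WT libraries overlapped were Hspe1 and Hspd1, Hsph1 and Dnajb1, and Hspb1 and Cryab. In the anti-Act1-labelled libraries the order was the same except that Cryab (mean 0.814 FPKM) stood above Hspb1 (mean 0.317 FPKM) and overlapped with Hspa1b (mean 1.05 FPKM). Thus Hspa8 and Hsp90aa1 were the most abundant of the 10 in both groups, while Hspa1a, Hspa1b and the small heat shock genes were low in both.

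**Figure D1:**
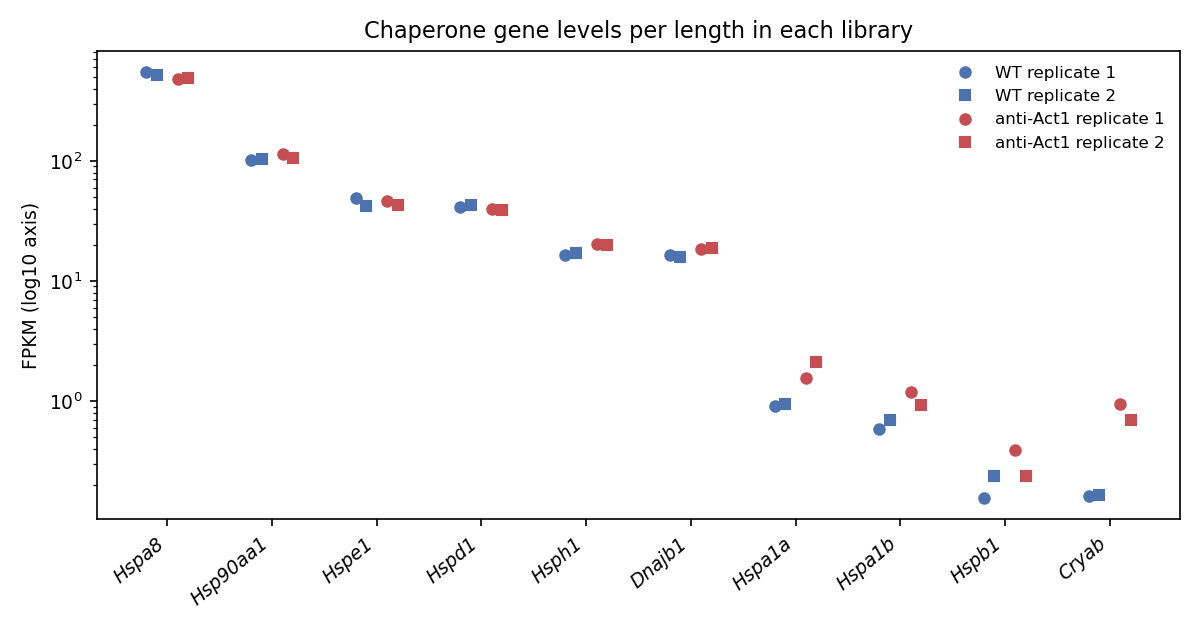
Level of each of the 10 heat shock genes in each of the 4 libraries, in FPKM on a log10 axis, with genes ordered by their mean in the WT libraries. Blue points are WT and red points anti-Act1, circles replicate 1 and squares replicate 2; Hspa8 sits between 477 and 549 FPKM and Cryab between 0.161 and 0.937 FPKM.

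Among the 9 genes other than Cryab, 4 were higher in the anti-Act1-labelled libraries (Hspa1a, Hspa1b, Hsph1 and Dnajb1), 0 were lower and 5 did not pass, by edgeR's quasi-likelihood test with an adjusted p under 0.05. At an unadjusted p under 0.05, 5 were higher and 1 was lower, and the share over all genes was not computed at this threshold. DESeq2 called 3 higher and 0 lower, beside 1078 higher and 908 lower among all 15495 genes with a count. It gave no adjusted p to 1 of the 9 and to 3527 of all these genes, which therefore could not be called. All 9 passed edgeR's filter on low counts. Of the 12494 genes tested, 20.7% passed by edgeR's adjusted p in either direction, 10.9% as higher and 9.76% as lower. Nothing is read from the members' share against any of these, since the genes were chosen with this contrast known. The median log2 difference of the 9 was 0.22, beside -0.00 over all genes tested; with limma it was 0.09 over the 7 that passed its FPKM filter, with either pseudocount, and 0.14 over the 9 unfiltered. The groups did not overlap in CPM for 8 of the 9, while 57.1% of all genes tested had groups that did not overlap. In bulk RNA, fewer cells that express a gene and less RNA of it per cell cannot be told apart.

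**Figure D2:**
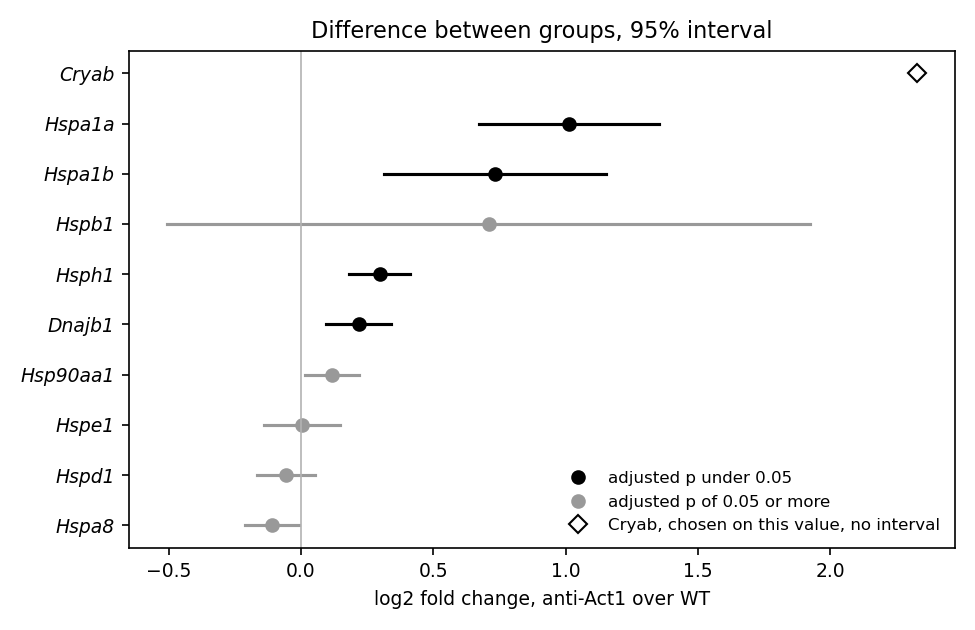
Log2 difference of each heat shock gene, anti-Act1 minus WT, with its 95% interval from the edgeR model; black points have an adjusted p under 0.05 and grey points do not, and Cryab, which was chosen for its difference, is an open diamond with no interval. Hspa1a (1.01), Hspa1b (0.73), Hsph1 (0.30) and Dnajb1 (0.22) are black and lie above 0.

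The small heat shock genes were both near the limit of detection. Cryab encodes αB-crystallin, a holdase abundant in lens and muscle. It had 10 and 12 counts in the WT libraries and 56 and 37 counts in the anti-Act1-labelled libraries. These are 0.155 and 0.158 CPM against 0.907 and 0.678 CPM, and both anti-Act1-labelled libraries lay above both WT libraries. The exact Poisson 95% intervals, which cover counting error only, were 0.0742 to 0.285 and 0.0817 to 0.276 CPM in the WT libraries and 0.685 to 1.18 and 0.477 to 0.934 CPM in the anti-Act1-labelled libraries. The mean CPM was 5.06 times as high in the anti-Act1-labelled libraries (log2 difference 2.33, given with no test). Without anti-Act1 replicate 1 the log2 difference was 2.10, and without anti-Act1 replicate 2 it was 2.52. All these values and intervals come from the libraries on which Cryab was chosen, so they only describe it. For scale, 3 counts were worth 0.0395 to 0.0549 CPM in these libraries. At the 2-fold threshold that chose Cryab, Hspa1a stood just inside with a fold of 2.02 and Hspa1b just outside with 1.66.

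Hspb1 encodes HSP27, a small heat shock protein that also caps actin filaments. It had 9 and 16 counts in the WT libraries and 22 and 12 counts in the anti-Act1-labelled libraries. As CPM the WT libraries were at 0.139 and 0.211 and the anti-Act1-labelled libraries at 0.356 and 0.220, so that the groups barely kept apart. The log2 difference was 0.71 with a 95% interval from -0.51 to 1.93 (edgeR adjusted p = 0.467). This interval holds 0 as well as a 2-fold difference, so no difference in Hspb1 was detected at this depth. The ratio of Hspb1 to Cryab in FPKM was 0.962 and 1.42 in the WT libraries and 0.420 and 0.347 in the anti-Act1-labelled libraries, a shift that follows from how Cryab was chosen.

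Because Cryab is also a gene of muscle, pericytes and lens, other cell types were looked for. The defining fibroblast markers were scarce: Col1a1 had 1, 0, 0 and 6 counts over the 2 WT libraries and then the 2 labelled anti-Act1, Lum was at 0 in all, and the 8 fibroblast markers summed to 1.76 to 1.88 CPM in the WT libraries and 2.23 to 2.48 CPM in the anti-Act1-labelled libraries, mostly Pdgfrb. The 6 muscle and pericyte markers summed to 3.39 to 4.02 CPM in the WT libraries and 3.75 to 3.89 CPM in the anti-Act1-labelled libraries. The epithelial keratins Krt8 and Krt18 were at 0 in all 4 libraries, and the 6 epithelial markers summed to 0.343 to 0.464 CPM in the WT libraries and 0.128 to 0.389 CPM in the anti-Act1-labelled libraries. The 4 T cell markers, nearly all of it Cd4, summed to 25.2 to 25.5 CPM in the WT libraries and 27.3 to 31.0 CPM in those labelled anti-Act1. The other T cell markers had few counts. Cd3e had 0 and 6 counts in the WT libraries and 2 and 4 in those labelled anti-Act1. Cd3d had 6 and 4 against 0 and 2, and Cd8a had 4 and 2 against 0 and 0. The sums of the endothelial, neutrophil and B cell markers overlapped between the groups. Within the neutrophil list, S100a8 was higher (log2 difference 0.66, edgeR adjusted p = 0.000564) and S100a9 (-1.42, edgeR adjusted p = 0.000650) and Ngp (-2.21, edgeR adjusted p = 0.00181) were lower, while Mpo had 4 and 13 counts in the WT libraries and 0 and 0 in the others. The part of the fibroblast sum, of Cd4 and of these neutrophil genes in the difference of Cryab was not tested. Hspb2, a gene of the small heat shock family whose RefSeq span (chr9:50751072-50752354) lies within that of Cryab (chr9:50745951-50756636), had 0 counts in every library. Whether the counting used strand is not given in the sources used here, so the split of reads between overlapping genes such as these is uncertain.

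The inducible HSP70 genes, which cells make mainly under stress, both passed the test. Hspa1a had 163 and 199 counts in the WT libraries and 272 and 328 in the anti-Act1-labelled libraries. In CPM these were 2.52 and 2.62 against 4.40 and 6.01, with both anti-Act1-labelled libraries above both WT libraries. The mean rose from 2.57 ± 0.0701 to 5.21 ± 1.13 CPM (SD, n = 2 each), a log2 difference of 1.01 (SE 0.17, 95% interval 0.67 to 1.35, edgeR adjusted p = 7.11e-06). The call was lost in 1 alternative, limma on unfiltered values (adjusted p = 0.0503).

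Hspa1b, the neighbouring copy, had 106 and 148 counts in the WT libraries and 206 and 144 in the anti-Act1-labelled libraries. In CPM these were 1.64 and 1.95 against 3.34 and 2.64, and the groups did not overlap. The log2 difference was 0.73 (SE 0.21, 95% interval 0.31 to 1.15, edgeR adjusted p = 0.00779). This call was lost without WT replicate 1 (edgeR adjusted p = 0.0683), without anti-Act1 replicate 1 (edgeR adjusted p = 0.168), with DESeq2 (adjusted p = 0.0536) and with limma on unfiltered values (adjusted p = 0.0885).

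The split between the pair is uncertain, since 38.1% of the 150-base windows of the Hspa1a transcripts (GENCODE M21) occur unchanged in Hspa1b, and 40.5% the other way round. With Hspa1l, another HSP70 gene beside them, Hspa1a shared 2.98% of its windows, and with Hspa8 it shared 0. Hspa1l was at 2.24 and 2.52 CPM in the WT libraries and 3.19 and 3.11 CPM in the anti-Act1-labelled libraries (log2 difference 0.40, edgeR adjusted p = 0.131). The sum of Hspa1a and Hspa1b does not depend on the split between those 2 genes. Reads that match both genes could also have been dropped in the counting. The sum would then be too low, and the ratios of Hspa8 to the pair given further on too high. Hspa1a and Hspa1b together had 269 and 347 counts in the WT libraries and 478 and 472 in the anti-Act1-labelled libraries. As a sum they rose by a log2 difference of 0.90 (edgeR adjusted p = 5.91e-07), and the rise held under the 10 alternatives run on the sum, between 0.82 and 0.99. In FPKM the sum was 1.50 and 1.65 in the WT libraries and 2.75 and 3.04 in the anti-Act1-labelled libraries. Hspa1a gave 60.6% and 57.3% of the pair's counts in the WT libraries and 56.9% and 69.5% in the anti-Act1-labelled libraries, so the shares of the groups overlapped.

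**Figure D3:**
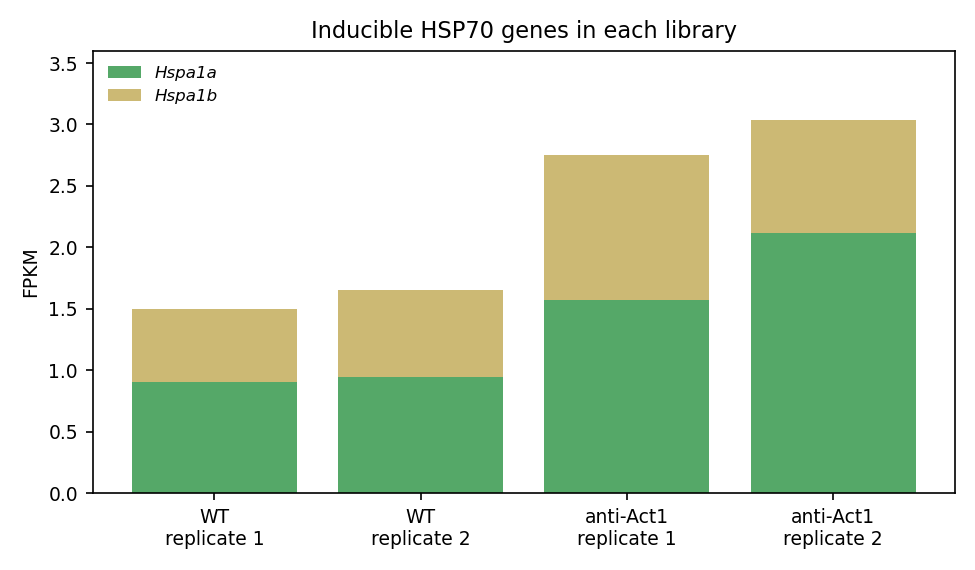
Stacked bars of the FPKM of Hspa1a and Hspa1b in each of the 4 libraries. The WT bars reach 1.50 and 1.65 FPKM and the anti-Act1 bars reach 2.75 and 3.04 FPKM.

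Hspa8, the HSP70 that cells make at all times (HSC70), was the most abundant member. It was at 1148 and 1070 CPM in the WT libraries and 1006 and 1047 CPM in the anti-Act1-labelled libraries, so both anti-Act1-labelled libraries lay below both WT libraries by a small margin. The log2 difference was -0.11 (SE 0.05, 95% interval -0.21 to -0.01, edgeR adjusted p = 0.118). It passed as lower without WT replicate 2 (-0.16, edgeR adjusted p = 0.0307) and with no composition normalization (-0.14, edgeR adjusted p = 0.0483). As a level against the inducible pair, Hspa8 was 367 and 312 times as high in FPKM in the WT libraries and 173 and 161 times as high in the anti-Act1-labelled libraries. It held 68.2% and 66.6% of the counts of all 10 genes in the WT libraries and 62.9% and 64.6% in the anti-Act1-labelled libraries.

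Hsph1 and Dnajb1, the members that work with HSP70, rose by small amounts. Hsph1 encodes HSP110, which releases nucleotide from HSP70. It was at 60.6 and 62.1 CPM in the WT libraries and 75.5 and 75.4 CPM in the anti-Act1-labelled libraries, with replicates closer to each other than the groups were. It rose by a log2 difference of 0.30 (SE 0.06, 95% interval 0.18 to 0.41, edgeR adjusted p = 7.07e-05), and this call held in all 13 alternatives, with adjusted p from 1.39e-05 to 0.0316. The ratio of Hspa8 to Hsph1 in FPKM was 33.3 and 30.3 in the WT libraries and 23.5 and 24.4 in the anti-Act1-labelled libraries.

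Dnajb1 encodes HSP40, the J-domain protein that hands clients to HSP70. It was at 48.4 and 46.0 CPM in the WT libraries and 53.9 and 55.8 CPM in the anti-Act1-labelled libraries, with no overlap. The log2 difference was 0.22 (SE 0.06, 95% interval 0.10 to 0.34, edgeR adjusted p = 0.00677). The call was lost without WT replicate 2 (edgeR adjusted p = 0.0683), without anti-Act1 replicate 2 (edgeR adjusted p = 0.117), and with limma on unfiltered values (adjusted p = 0.0826).

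Hsp90aa1 encodes the inducible form of cytosolic HSP90. It was at 288 and 293 CPM in the WT libraries and 324 and 307 CPM in the anti-Act1-labelled libraries, higher in both but by little. The log2 difference was 0.12 (SE 0.05, 95% interval 0.02 to 0.22, edgeR adjusted p = 0.0985), and it did not pass the test in any of the 13 alternatives. Hsp90ab1, the constitutive form, was 3.10 and 3.19 times as high as Hsp90aa1 in FPKM in the WT libraries and 2.91 and 3.30 times as high in the anti-Act1-labelled libraries, ratios that overlapped between groups. Its own log2 difference was 0.10 (edgeR adjusted p = 0.184).

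Neither gene of the mitochondrial pair passed the test. Hspd1 was at 97.2 and 99.8 CPM in the WT libraries and 95.1 and 94.3 CPM in the anti-Act1-labelled libraries, with a log2 difference of -0.06 (95% interval -0.17 to 0.05, edgeR adjusted p = 0.526). Hspe1 was at 37.4 and 31.8 CPM in the WT libraries and 35.8 and 33.4 CPM in the anti-Act1-labelled libraries, and it was the only member whose groups overlapped. Its log2 difference was 0.00 (95% interval -0.14 to 0.15, edgeR adjusted p = 0.985). The ratio of Hspe1 to Hspd1 in FPKM was 1.19 and 0.982 in the WT libraries and 1.16 and 1.09 in the anti-Act1-labelled libraries, and the groups overlapped here too. Hspd1 and Hspe1 carry the longest element printed above, and Hspa1a and Hspa1b carry only the form with 2 units within the window searched. Hsph1, which rose, carries the element of 3 units, and Dnajb1, which also rose, carries neither form there. Only exact units were searched for, and any relation between these elements and the differences was not tested.

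The rest of the chaperone network was taken from 10 lists of 90 genes by role, of which 83 were tested. Of these, 9 were higher and 1 was lower in the anti-Act1-labelled libraries, so 10 of 83 passed, beside 20.7% of all genes tested, and their median log2 difference was 0.03. DESeq2 called 7 of the listed genes higher and 1 lower, beside 1078 higher and 908 lower among all 15495 genes with a count. It gave no adjusted p to 4 of the 87 listed genes with a count and to 3527 of all genes. For the counts at an unadjusted p below, no share over all genes was computed, so nothing is read from them. The lists were written with earlier results of these data known, and they are described by counts only.

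Of the 4 genes listed as heat shock factors and their regulator, 0 passed the edgeR test, with 1 (Hsf4, named after its values were seen, log2 difference 0.36) at an unadjusted p under 0.05 and 0 by DESeq2. Hsf1 was at 28.5 and 24.1 CPM in the WT libraries and 25.6 and 26.8 CPM in the anti-Act1-labelled libraries, so that the groups overlapped (log2 difference -0.00, edgeR adjusted p = 0.992). Hsf2, a factor of the same family that acts in development, was at 21.6 and 23.3 CPM against 22.5 and 21.4 CPM (log2 difference -0.03, edgeR adjusted p = 0.829). The activity of HSF1 is set largely by the protein's state, which was not measured, and the transcript does not report it.

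Among other genes of the HSP70 system, 2 passed. They were 1 of the 7 other HSP70 and HSP110 genes tested and 1 of the 7 exchange factors and partners tested. That is 14.3% of each list, beside 20.7% of all genes tested. Bag2, which encodes an exchange factor that keeps the ligase CHIP from marking HSP70 clients, was at 2.69 and 2.49 CPM in the WT libraries and 4.02 and 4.74 CPM in the anti-Act1-labelled libraries. It rose by a log2 difference of 0.76 (SE 0.17, edgeR adjusted p = 0.000741) and passed in all 13 alternatives. Hspa4l, a relative of Hsph1, rose by 0.17 (SE 0.06, edgeR adjusted p = 0.0396) but the call was lost in 10 of 13 alternatives, among them each library left out in turn (edgeR adjusted p = 0.0717 to 0.318). Of the 7 exchange factors and partners tested, Bag2 was the only one that passed, and Bag3, which is itself an HSF1 target and a partner of small heat shock proteins, had a log2 difference of -0.07 (edgeR adjusted p = 0.570). By edgeR 0 of the 7 other cytosolic J-domain genes and 0 of the 10 genes for HSP90 and its cochaperones passed, with 0 in either list at an unadjusted p under 0.05 and 0 by DESeq2.

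Of the 6 other small heat shock genes, 3 (Cryaa, Hspb2 and Hspb3) were at 0 in all libraries and only Hspb6 and Hspb7 could be tested. Their log2 differences were 0.11 (edgeR adjusted p = 0.630) and 0.72 (edgeR adjusted p = 0.388), and neither passed. Of the 6 other genes that HSF1 is known to induce, Ubb, a polyubiquitin gene, rose by 0.17 (SE 0.05, edgeR adjusted p = 0.0122). Ier5, an immediate early gene whose product acts on HSF1, was lower by a log2 difference of -0.17 (SE 0.05, edgeR adjusted p = 0.0183). Of 13 alternatives, Ubb lost its call in 5 and Ier5 in 3. With limma, Ubb lost it with either pseudocount (adjusted p = 0.139 for each) and unfiltered (adjusted p = 0.306). Ier5 lost it with limma on unfiltered values (adjusted p = 0.110). Both calls were lost without WT replicate 2 (edgeR adjusted p = 0.0858 for Ubb and 0.109 for Ier5) and without anti-Act1 replicate 2 (edgeR adjusted p = 0.429 and 0.356).

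The mitochondrial list held 5 of 14 genes higher (35.7%, where 10.9% of all genes tested were higher) and 0 lower by edgeR, 4 higher and 0 lower by DESeq2, 6 higher and 0 lower at an unadjusted p under 0.05, and a median log2 difference of 0.09. Hspa9, which encodes mortalin, the mitochondrial HSP70, was at 249 and 245 CPM in the WT libraries and 309 and 319 CPM in the anti-Act1-labelled libraries. It rose by 0.35 (SE 0.05, edgeR adjusted p = 4.86e-07). Afg3l2, a subunit of the protease of the inner membrane, was at 170 and 165 CPM against 226 and 219 CPM and rose by 0.41 (SE 0.05, edgeR adjusted p = 1.78e-08). Lonp1, the protease of the matrix, was at 92.4 and 86.2 CPM against 106 and 106 CPM and rose by 0.25 (SE 0.05, edgeR adjusted p = 0.000465). Hspa9 and Afg3l2 passed in all 13 alternatives, and Lonp1 lost its call in 1, limma on unfiltered values (adjusted p = 0.0563). Clpp, a second matrix protease, and Grpel1, the exchange factor of mortalin, were named after their values were seen. They rose by 0.23 (edgeR adjusted p = 0.0356) and 0.20 (edgeR adjusted p = 0.0177). Clpp and Grpel1 were not followed singly through the alternatives. Hspd1 and Hspe1, the chaperonin pair of the same compartment, did not pass, and the difference between them and these genes was not tested.

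The remaining lists held few calls. Of 14 genes of the cytosolic chaperonin CCT and prefoldin, 0 passed the edgeR test, 1 had an unadjusted p under 0.05 and DESeq2 called 0. Of 12 endoplasmic reticulum chaperones, Hspa5, which encodes BiP, rose from 363 and 368 CPM to 402 and 409 CPM, a log2 difference of 0.15 (SE 0.05, edgeR adjusted p = 0.0247), and this call was lost in 8 of 13 alternatives, among them without WT replicate 1 (edgeR adjusted p = 0.0735), anti-Act1 replicate 1 (0.106) and anti-Act1 replicate 2 (0.199).

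**Figure D4:**
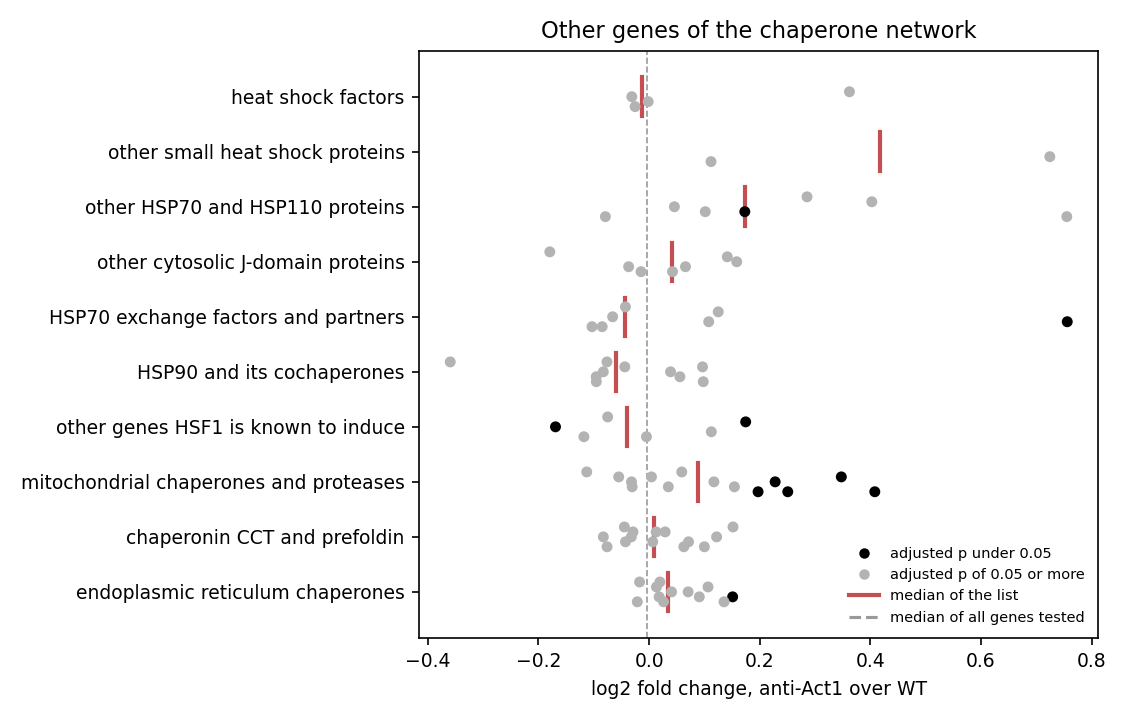
Log2 difference, anti-Act1 minus WT, of each tested gene in the 10 chaperone lists; black points have an edgeR adjusted p under 0.05, grey points do not, red bars are list medians and the dashed line is the median over all genes tested. The mitochondrial list holds 5 black points, all above 0, and the CCT and prefoldin list holds 0.

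The genes whose pattern over the 4 libraries was most like that of Cryab were sought among 10892 tested genes with a mean of at least 1 CPM, by the Euclidean distance of log2(CPM + 0.1) centred on the 4 libraries. They were Lox, which encodes lysyl oxidase (distance 0.247, log2 difference 1.97), Ass1, argininosuccinate synthase (0.247 and 1.86), Acacb, an acetyl-CoA carboxylase (0.286 and 2.04), Syde1 (0.328 and 1.70) and Clec4e, the receptor Mincle of macrophages (0.336 and 1.53). Lox was at 1.41 and 1.36 CPM in the WT libraries and 5.55 and 5.29 CPM in the anti-Act1-labelled libraries. Clec4e was at 64.3 and 67.6 CPM against 195 and 185 CPM. None of the 5 belongs to the heat shock genes, and a likeness over 4 libraries in 2 groups reflects mainly the size of the difference between groups.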

How the data were processed

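RNA sequencing of BMDMs was analysed in 4 libraries, 2 per group. The authors filtered the reads, aligned them with TopHat and deposited read counts per gene without normalization. They also deposited FPKM values, which scale these counts by gene length and library total. Per the submitters' processing notes, Bowtie 0.12.2 and HTSeq 0.6.1 were used. The notes name more than 1 mouse build with no role, so coordinates and sequences are credited to RefSeq GRCm38.p6 alone. The table lists 21878 genes, of which 6383 had no count anywhere; 27 names had become dates and 2 names were repeated.

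Counts were tested with edgeR 4.0.16 in R 4.3.3 (TMM, filterByExpr, condition only, two-sided quasi-likelihood F test, Benjamini-Hochberg over 12494 genes). An exact permutation test of 2 libraries against 2 cannot go below p = 0.333. Standard errors and intervals come from the edgeR fit. Intervals and floors of counts cover counting error only.

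The members and all lists were chosen with earlier results of these data known. Named were the 10 members, Traf3ip2, Hsf1, Hsf2, Hspb2, up to 3 higher and 3 lower called genes per list, and the 5 patterns nearest to Cryab; list members may be named as examples, and those were chosen with their values in view. Alternatives were DESeq2 1.42.0, its size factors, library totals alone, every gene with a count, a minimum of 10 counts in each library, the replicate number as a block, limma 3.58.1 on log2(FPKM + 1) or log2(FPKM + 0.1) with at least 1 FPKM in 2 libraries or, with 1 added, no filter, and each library left out. On simulated counts of this comparison edgeR called 100 of 100 genes changed by 2 and 94 of 100 changed by 1 on the log2 scale, and 5 unchanged ones among 12444 tested. The simulation gave every gene the same spread between replicates and took the changed genes from those that passed the filter. These rates may therefore not hold for the real genes, least of all those with few counts. Replicates of a group differed by more than counting noise (chi-square per degree of freedom 10.8 and 7.45).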

Additional observations from a re-analysis of the deposited data

How the results depend on the processing

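The rise of the summed Hspa1a and Hspa1b and of Hsph1 held under every alternative run for them; the sum was not run with limma. Of the members other than Cryab, 3 to 5 were called under all alternatives but limma without a filter, where 1 was. Cryab kept its direction, with a log2 difference of 2.10 to 2.52 when 1 library was left out and 0.64 with unfiltered limma values, where the pseudocount of 1 exceeds its level. Since Cryab was chosen for its difference in these same libraries, nothing is read from that. All genes called numbered 2586, and 1092 with limma without a filter and 1671 to 2543 when 1 library was left out. Without composition normalization 1105 were higher and 1411 lower, against 1366 and 1220. The chaperone lists held 10 calls, and 6 without composition normalization, 6 with limma with either pseudocount, 3 with limma without a filter and 4 to 9 when 1 library was left out, fewest without anti-Act1 replicate 2 (4) and anti-Act1 replicate 1 (6). The cause was not tested. Traf3ip2 ran from 0.11 to 0.41 when 1 library was left out. Values near 0 changed sign: Hspe1 was at -0.0218 without composition normalization, -0.0204 or -0.0207 with limma, and -0.11 to 0.12 when 1 library was left out; Hsf1 was at 0.000218 with at least 10 counts, 0.000779 with the replicate block and -0.12 to 0.12 when 1 library was left out; Hsf2 ran from -0.0870 to 0.0271 when 1 library was left out. Libraries with the same number did not deviate together (correlation -0.0334), and with 2 libraries per group this does not settle whether they were paired. The replicate block gave 2406 calls in all, 4 among the members, and took the calls of Hspa4l and Hspa5. With 2 libraries per group, differences at the level of Hspb1, 9 to 22 counts, are limited by depth.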

Other observations

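Hspb8, a small heat shock gene that was too low to be tested, had 0 counts in both WT libraries and in anti-Act1 replicate 1 and 10 counts in anti-Act1 replicate 2. Chordc1, a cochaperone of HSP90, and Dnajb6 were the 2 genes among the 74 of the chaperone lists with a promoter in the table that held a heat shock element of 3 units (2.70%), and neither passed the edgeR test (log2 differences -0.08 and 0.04, adjusted p = 0.432 and 0.640).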
